A study of Mus musculus with 4 samples.

Results

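The regions described here are positions of Egr2 binding that appeared both in natural killer T (NKT) cells and in thymocytes stimulated through their T cell receptor (TCR). Members were chosen by position: a region in the deposited Egr2 list of injected thymocytes belongs to the set when it overlapped a region of the NKT list by at least 1 bp. This rule gave 355 of the 4216 injected-thymocyte regions, which is 8.42% of that list, together with 354 of the 1996 NKT regions, or 17.7%. Because some regions met more than 1 partner, the set formed 356 overlapping pairs. These counts are the rule itself and are given as a description.

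Egr2 (Krox-20) belongs to the early growth response family of zinc-finger transcription factors, which bind GC-rich elements in promoters and enhancers. T cells induce the family through calcium and MAP kinase signalling downstream of the TCR. In the thymus, Egr2 is known for its part in the development of NKT cells, a lineage selected by self-lipids on CD1d through strong receptor signals. A position bound both in NKT cells and after a strong acute TCR signal is therefore of interest to those who study which Egr2 targets the lineage shares with TCR stimulation.

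The series holds 4 libraries, all labelled with the mouse strain Va14tg, which carries a transgene for the TCR α chain used by NKT cells. The NKT library was made from 20000000 cells, enriched with α-galactosylceramide-loaded CD1d tetramers and pooled from about 10 mice on average. The injected-thymocyte library was made from 20000000 thymocytes taken from 3 to 5 mice 24 hours after 500 µg of an antibody against TCRβ (clone H57). Both were immunoprecipitated with the same lot of antibody against Egr2. An input DNA library and an IgG library complete the series and were not analysed here. The labels describe no further sorting of the injected thymocytes, and the animals of each library were pooled. The injected thymocytes may therefore include NKT cells. Binding in such cells cannot be told apart here from binding in other thymocytes after TCR stimulation. There was 1 library per condition, so no difference between NKT cells and injected thymocytes has a replicate check, and no p-value is given. No interval below covers variation between libraries. Intervals of shares and medians treat regions as independent draws, and those of tag ratios cover counting error only. The lists hold positions of binding and no expression, so the labelled cell types could not be checked against their markers. No source used here gives the depth of a library. The lists as analysed hold only part of the authors' region numbers. These run to 4975 for injected thymocytes and to 2885 for the NKT list, with 15.3% and 30.8% of numbers not listed. Further shared regions may lie among numbers not analysed here. Low numbers go with tall regions, and the lowest listed are 9 and 44. Injected-thymocyte number 100 ranks 80th by density, whereas NKT number 99 ranks 18th. Tall regions may therefore be missing, above all from the NKT list, and all ranks below are among listed regions.

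The paired regions and their summits lay close together. Members were chosen by overlap, so this closeness follows in part from the rule and is given as a description. The overlap had a median of 244 bp (quartiles 200.8 and 290 bp), against median widths of 333 bp for the injected-thymocyte regions and 261 bp for the NKT regions. In 183 of 356 pairs the NKT region lay wholly inside the injected-thymocyte region, and the reverse held in 42 pairs. The injected-thymocyte region was the wider one in 268 pairs. Each summit fell inside the region of the other library in 335 pairs, or 94.1% (95% exact binomial interval 91.1% to 96.3%).

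Summits were scattered around each other without a preferred side. The distance between the 2 summits of a pair had a median of 32 bp. It was at most 10 bp in 57 pairs, at most 25 bp in 147 and at most 50 bp in 260, and 3 pairs had the same summit base. The NKT summit lay at the higher coordinate in 180 pairs and at the lower in 173, and the signed offset had a median of 1 bp (interval of the median −5 to 8 bp). Summits more than 100 bp apart occurred in 30 pairs. The control signal was raised in many of these: 11 of the 26 pairs with a control density of 3 or more in either list were that far apart, against 19 of the other 330. The control density is the authors' tag density of the control library at the summit, in the same units as the ChIP density. Whether raised control signal displaces a summit was not tested.

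**Figure D1:**
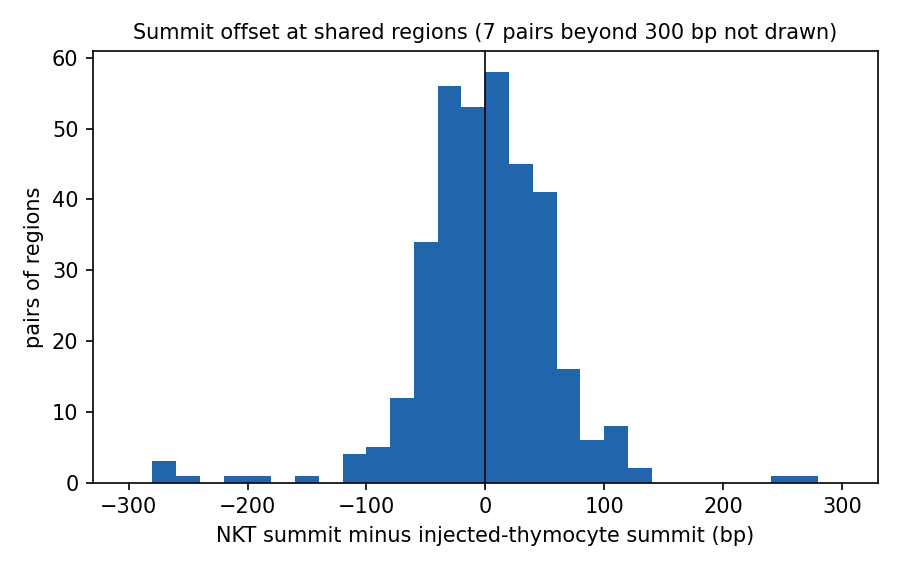
Histogram of the NKT summit position minus the injected-thymocyte summit position in bp, in bins of 20 bp, over the pairs of shared regions; 7 pairs more than 300 bp apart are not drawn. The offsets centre on 0, with a median of 1 bp.

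Shared regions were taller, wider and better covered by tags than the lists they came from. In injected thymocytes their ChIP density, the authors' peak height, had quartiles of 15.2 and 31.7, against 10.4 and 12.99 over the whole list. In NKT cells the quartiles were 11.9 and 17.6, against 10.4 and 12.4. A shared region of injected thymocytes held a median of 44 ChIP tags (range 12 to 180) and 1 control tag, and 102 of 355 (28.7%, 24.1% to 33.7%) held no control tag, compared with 16.6% of the whole list. A shared NKT region held a median of 26 ChIP tags (range 11 to 659) and 3 control tags, and 27 of 354 held no control tag (7.63%, 5.09% to 10.9%), compared with 3.76% of the list. The deposited tag enrichment had a median of 9.81 at shared injected-thymocyte regions and 4.10 over all of them; in NKT cells the medians were 6.62 and 3.74. Regions at least 250 bp wide made up 84.8% of the shared injected-thymocyte regions and 22.5% of the list, and 56.2% of the shared NKT regions and 15.5% of that list. Height, width and tag number depend on each other, and overlap by 1 bp is easier for wide regions, so these differences describe the set without a test.

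Taller regions were shared more often, in each higher bin for injected thymocytes and up to a density of 40 in the NKT list. Among injected-thymocyte regions with a density under 12, 26 of 2741 were shared (0.949%, 0.621% to 1.39%). The count rose to 75 of 308 at densities from 15 to under 20 (24.4%, 19.7% to 29.5%), to 96 of 220 from 20 to under 30 (43.6%, 37.0% to 50.5%) and to 22 of 27 at 50 or more (81.5%, 61.9% to 93.7%). In the NKT list it was 94 of 1388 under 12 (6.77%, 5.51% to 8.22%), 105 of 391 from 12 to under 15 (26.9%, 22.5% to 31.5%) and 98 of 139 from 15 to under 20 (70.5%, 62.2% to 77.9%). From 20 to under 30 it was 49 of 66 (74.2%, 62.0% to 84.2%), and all 7 NKT regions from 30 to under 40 were shared. None of the 3 NKT regions from 40 to under 50 was shared, and 1 of the 2 above that was. In injected thymocytes the share was higher in each higher bin, but the intervals overlapped from a density of 30 upwards. It was 62.1% (51.0% to 72.3%) from 30 to under 40 and 67.6% (49.5% to 82.6%) from 40 to under 50. In the NKT list the intervals overlapped from a density of 15 upwards.

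Within each quartile of NKT height, regions with a long strand shift were shared more often than those with a short one. Heights still differ within a quartile, most in the top one, and were not matched between long and short shifts. The strand shift is a deposited value for the offset between tags on the 2 DNA strands, which depends on fragment length at a bound site. In the top quartile of NKT heights (density 12.4 or more), 182 of 255 regions with a shift of 60 bp or more were shared (71.4%, 65.4% to 76.8%), against 65 of 259 with a shorter shift (25.1%, 19.9% to 30.8%). In the lowest quartile 15 of 59 long-shift regions were shared (25.4%, 14.98% to 38.4%), against 12 of 371 with a short shift (3.23%, 1.68% to 5.58%). A weak NKT region with a long shift was therefore shared about as often as a tall one with a short shift. In the top quartile of injected thymocytes (density 12.99 or more) the shares were 29.7% (26.9% to 32.7%) and 29.4% (17.5% to 43.8%), and only 51 regions there had a shift under 60 bp. Whether the lists differ in this respect was not tested.

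**Figure D2:**
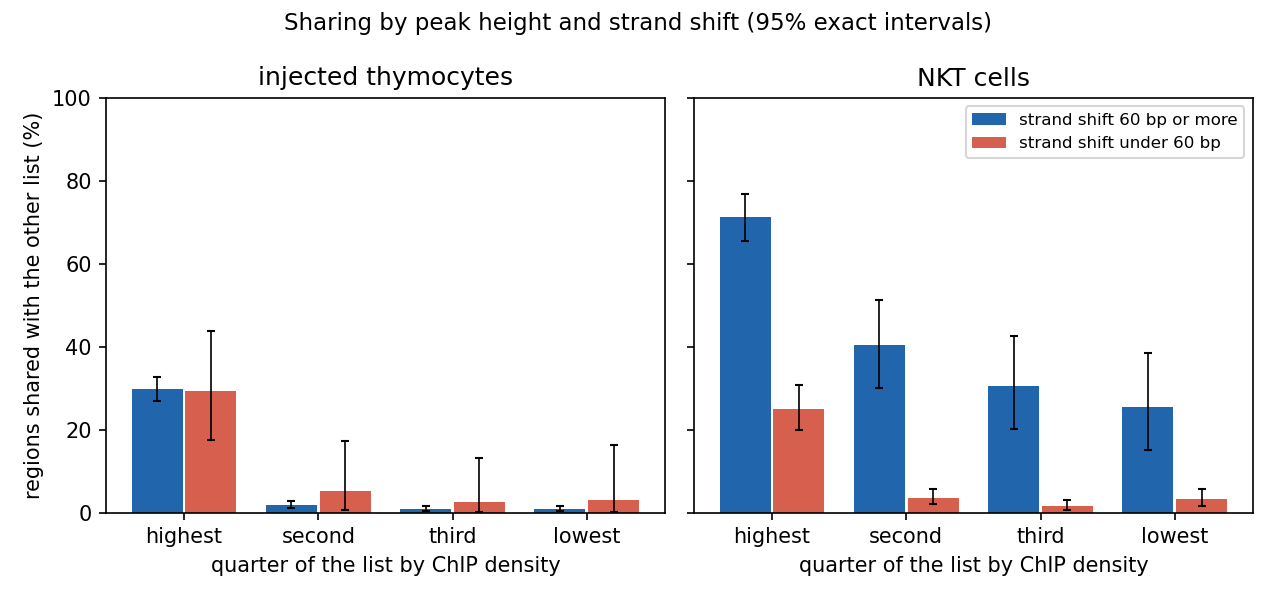
Percentage of regions shared with the other list, by quartile of the list in ChIP density (x axis) and by strand shift of 60 bp or more (blue) or under 60 bp (red), with 95% exact binomial intervals, for injected thymocytes (left) and NKT cells (right). In the top NKT quartile 71.4% of long-shift and 25.1% of short-shift regions were shared, while the injected-thymocyte values there were 29.7% and 29.4%.

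Within the set, the strand shifts of the 2 libraries showed almost no correlation. Over the 356 pairs the NKT shift had a median of 70 bp (quartiles 58 and 81 bp) and the injected-thymocyte shift 87 bp (77 and 99 bp). The injected-thymocyte shift was larger by a median of 16 bp (13 to 19 bp), and 278 pairs had the shorter shift in NKT cells. The correlation of the 2 shifts over pairs was 0.0061 (Pearson) and 0.00092 (Spearman), while log widths gave 0.39 and 0.30 and log tag counts 0.37 and 0.40. These are descriptions over pairs of 2 libraries, in which the points share library, depth and list limits. Both shifts were 60 bp or more in 246 pairs (69.1%).

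Most pairs were high in both libraries. In 226 of 356 pairs (63.5%, 58.2% to 68.5%) both regions were in the top density quartile of their list. In 88 pairs only the injected-thymocyte region was, in 23 pairs only the NKT region, and in 19 pairs neither. The pairs high in both had a median density of 26.4 for injected thymocytes and of 16.2 for NKT cells, with 52.5 and 30 ChIP tags. The 88 pairs high in injected thymocytes alone had a median NKT density of 11.1, close to the lowest listed value, yet their NKT strand shift of 71 bp was near the 70 bp of the pairs high in both. The 23 pairs high in NKT cells alone had an NKT shift of 56 bp (50 to 76 bp), and 18 of them had a control density under 3 in both lists, against 86 of the 88. In the 19 pairs high in neither, medians were 11.3 and 10.3 for density and 20 and 18 for ChIP tags.

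**Figure D3:**
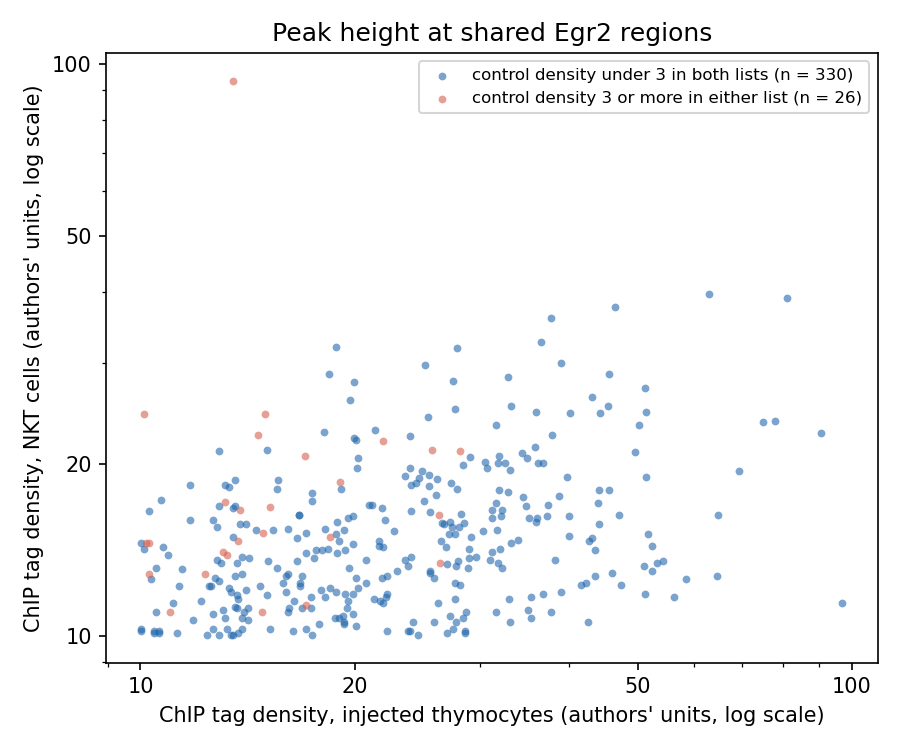
ChIP tag density of the NKT region (y axis) against that of the injected-thymocyte region (x axis) for the 356 pairs, both on log scales in the authors' units; red points have a control density of 3 or more in either list (26 pairs). Injected-thymocyte densities spread from 10.03 to 97.0, while the NKT densities have quartiles of 11.9 and 17.6; the red point at the top is the NKT region of density 93.5.

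Among listed shared regions, heights spread more widely in injected thymocytes, with density quartiles of 15.2 and 31.7 against 11.9 and 17.6 in NKT cells. Quartiles of ChIP tags were 29 and 66.5 against 21 and 34. Whether the unlisted region numbers narrow the NKT spread was not tested. Dividing the pairs into 4 equal groups by injected-thymocyte density gave median ChIP tags of 85, 52, 35 and 24 in that library. The NKT regions of the same pairs had medians of 32, 29, 23 and 23 tags. Dividing them by NKT density instead gave NKT medians of 43, 29, 23 and 19 tags and injected-thymocyte medians of 58, 47, 37 and 34. Each library thus followed the order of the other in part. Both lists were limited from below at a density near 10, which compresses the lower end of each.

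The highest pairs in both libraries were ordered by the sum of their density ranks within the set. The first 4 places were held by positions on chromosomes 1, 12, 17 and 8, followed by chr5:30481628-30481980, where injected thymocytes had 96 ChIP tags and no control tag and the NKT library had 42 and 2. Its densities were 51.1 and 27.1 and its summits lay 8 bp apart. The sixth and seventh places went to chr7:135110626-135111210 and chr6:90319236-90319644. They were among the tallest of injected thymocytes, at 75.1 and 90.4, and had NKT densities of 23.6 and 22.6. The pair on chromosome 7 had 156 and 37 ChIP tags in the 2 libraries, and the pair on chromosome 6 had 174 and 47. Both injected-thymocyte regions were without a control tag.

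More even heights were found in the next places. The position chr2:127742491-127742945 had 107 ChIP tags for injected thymocytes against 52 for NKT cells, with 2 control tags in each and summits 24 bp apart. At chr11:60590760-60591405, one of the widest members at 646 bp, the tags were 107 and 46 and the summits were 2 bp apart. Chromosome 4 held 3 positions in a row: chr4:120597521-120597925 with 99 and 37 tags, chr4:119631966-119632381 with 112 and 44, and chr4:154552390-154552825 with 108 and 67. They were followed by chr8:37247180-37247544 with 85 and 46 tags and chr2:31112027-31112411 with 79 and 57. In the fifteenth place, chr19:8786432-8786912 had densities of 37.7 and 36.0 and 112 and 78 tags.

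Places 16 to 19 were taken by chr7:107755621-107755993 with 88 and 64 ChIP tags, chr6:125215296-125215620 with 73 and 43, chr1:24685155-24685517 with 124 and 44, and chr2:119034334-119034894 with 111 and 44. At the position on chromosome 1 both libraries had their summit at the same base, and neither had a control tag. The twentieth lay on chromosome 18. The 20 positions were spread over 12 chromosomes. Their control densities did not exceed 1.43 for injected thymocytes or 1.71 for NKT cells, their summits were at most 45 bp apart and their NKT strand shifts ran from 59 to 107 bp.

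At the other end, the pairs with the lowest combined height were chr17:80573876-80574357 with densities of 10.03 and 10.2, chr4:6440205-6440415 with 10.4 and 10.1, and chr6:129254756-129254881 with 10.6 and 10.1. They rested on 29, 20 and 15 ChIP tags of injected thymocytes, and on 15, 13 and 13 of the NKT library. The summits at the chromosome 4 position were 2 bp apart, and those at the chromosome 17 position 272 bp.

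Because depths were not given, the 2 tag counts of a pair were compared as a tag balance: NKT ChIP tags divided by injected-thymocyte ChIP tags, divided again by the median of this ratio over all pairs (0.630). A balance of 1 is that of the median pair, and each balance carries an exact interval for 2 counts. The tags are those within each list's own region bounds and not within a common window, so region width enters the balance. Its quartiles were 0.705 and 1.36. The 95% interval lay above 1 in 47 of 356 pairs (13.2% of all pairs tested) and below 1 in 75 (21.1%). All pairs tested are members, so these percentages are also the background. Of the 122 pairs with such an interval, 120 were on the same side of the median pair by density at the summit. In 29 pairs the balance was 2 or more, and in 38 it was 0.5 or less. Raised control signal was unequal between these: 9 of the 29, and none of the 38, had a control density of 3 or more in either list. Among the 330 pairs with less control signal the balance ran from 0.202 to 2.97.

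The balance was lowest at very tall injected-thymocyte regions. Its construction favours this order, because injected-thymocyte tags are the denominator and rise with density (Pearson correlation of logs 0.885). In 4 equal groups from high to low injected-thymocyte density, the interval lay above 1 in 0, 4, 11 and 32 pairs. It lay below 1 in 53, 16, 6 and 0. The order is therefore no result about the regions. Pairs were named here where both control densities were under 3 and both regions had at least 20 ChIP tags, which held for 260 pairs. The lowest was chr3:153575771-153576264, the tallest listed region of injected thymocytes. It had 173 ChIP tags against 22 in NKT cells and no control tag in either, a balance of 0.202 (0.123 to 0.316). It was followed by chr9:95854903-95855421 with 128 and 21 tags, a balance of 0.261 (0.156 to 0.415). At chrX:7151378-7152001 there were 180 and 32 tags, the most of any shared injected-thymocyte region, and the balance was 0.282 (0.188 to 0.413). The next were chr1:36854388-36854901 with 105 and 20 tags at 0.303 (0.178 to 0.491) and chr6:6905840-6906287 with 100 and 20 at 0.318 (0.186 to 0.517). Their NKT densities, between 11.4 and 13.5, were near the lower limit of the list. Their regions were 448 to 624 bp wide for injected thymocytes and 186 to 306 bp for NKT cells.

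Under the same limits on control density and tags, the 5 highest balances belonged to pairs with injected-thymocyte densities of 12.8 to 19.7 and NKT densities of 15.5 to 28.7. Their regions were 231 to 315 bp wide for injected thymocytes and 286 to 421 bp for NKT cells. At chr1:39612890-39613187 injected thymocytes had 23 ChIP tags against 43 for NKT cells, a balance of 2.97 (1.75 to 5.16). By density its balance was 1.78. The pair at chr12:107549291-107549585 had 32 and 51 tags, a balance of 2.53 (1.60 to 4.07), and its NKT density of 28.7 ranked 18th in that list while its injected-thymocyte density of 18.4 ranked 445th. The pair at chr4:59291377-59291607 had 26 and 41 tags and a balance of 2.50 (1.496 to 4.26). Similar values were found at chr15:100554002-100554311, with 37 and 58 tags and 2.49 (1.62 to 3.87), and at chr6:72904718-72905032, with 22 and 33 tags and 2.38 (1.35 to 4.29). All 5 intervals lay above 1 and all 5 of the lowest lay below it, and the 10 pairs kept their side when densities or control-subtracted tags were used. They were named for these values, which are therefore a description.

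**Figure D4:**
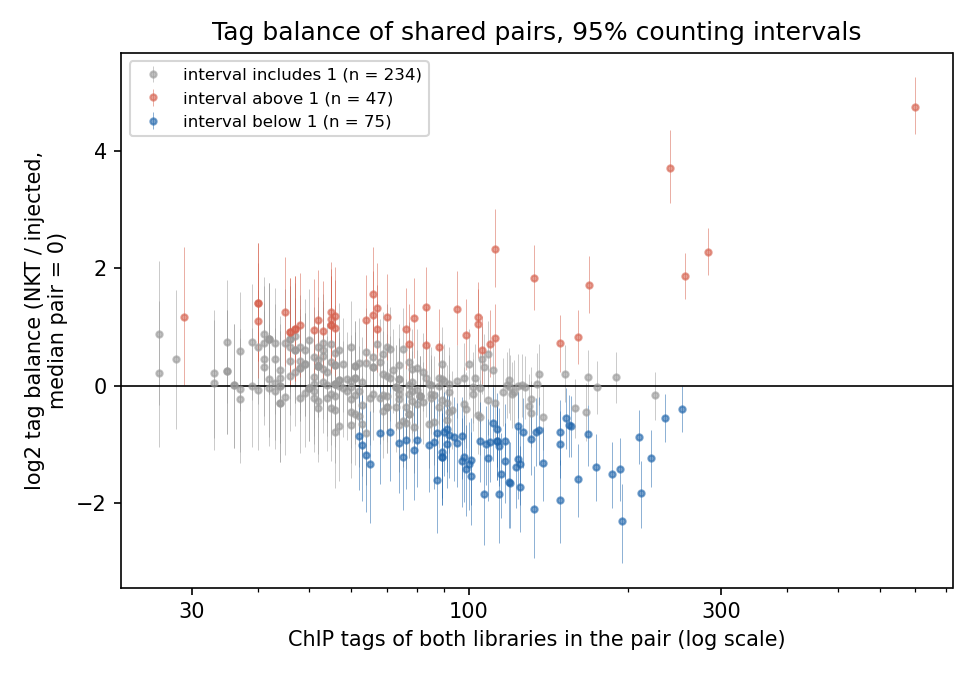
Log2 tag balance of each pair (NKT over injected-thymocyte ChIP tags, with the median pair at 0) against the ChIP tags of both libraries together on a log scale, with 95% counting intervals; red intervals lie above 0 (47 pairs), blue below 0 (75 pairs) and grey include it (234 pairs). The lowest point is the pair with a balance of 0.202, and the points highest on the axis belong to pairs with raised control signal.

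Shared regions were found on all 20 chromosomes listed, in unequal numbers. Chromosome 11 held 36 of the 355 (10.1% of the set and 5.67% of all injected-thymocyte regions). There 15.1% of injected-thymocyte regions (10.8% to 20.2%) and 34.3% of NKT regions (25.3% to 44.2%) were shared. Chromosome 15 followed with 24 shared regions, 13.04% (8.54% to 18.8%) and 27.6% (18.5% to 38.2%), and chromosome 7 with 31, 12.2% (8.41% to 16.8%) and 25.6% (18.1% to 34.4%). Low shares were found on chromosome 3, with 12 shared regions or 4.96% (2.59% to 8.502%) and 8.28% (4.35% to 14.01%), and on the X chromosome, with 4 or 2.63% (0.722% to 6.60%) and 8.00% (2.22% to 19.2%). In injected thymocytes the interval lay above 8.42% on chromosomes 11 and 15 and below it on the X chromosome alone, and 20 chromosomes were looked at. In the NKT list it lay above 17.7% on chromosomes 7, 11 and 15 and below it on chromosome 3 alone. In the top density quartile of injected thymocytes, 314 of 1057 regions were shared over all chromosomes. Of these tall regions, 33 of 80 were shared on chromosome 11, 22 of 53 (41.5%) on chromosome 15 and 25 of 83 (30.1%) on chromosome 7. On the X chromosome 4 of 22 (18.2%) were shared, and the share was lower, at 16.7%, on chromosomes 13 (7 of 42) and 19 (5 of 30). In the top NKT quartile 247 of 514 were shared over all chromosomes. There the shares were 25 of 45 (55.6%) on chromosome 11, 17 of 24 (70.8%) on chromosome 15 and 19 of 39 (48.7%) on chromosome 7. On chromosome 3 the NKT share was 6 of 29 (20.7%).

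**Figure D5:**
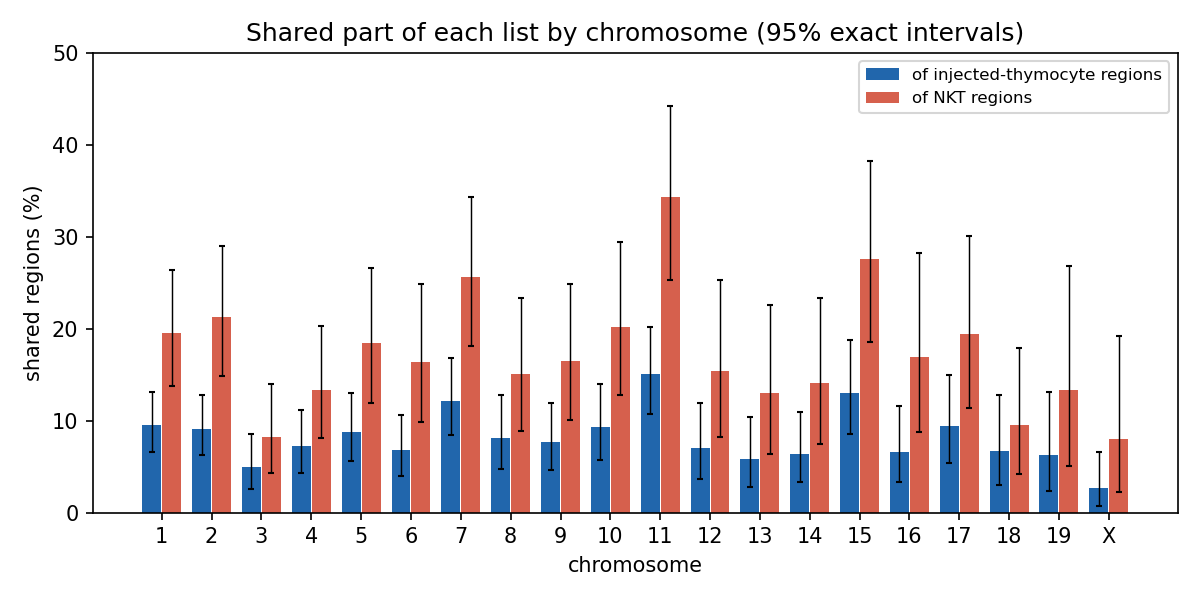
Percentage of the regions on each chromosome that were shared, of injected-thymocyte regions (blue) and of NKT regions (red), with 95% exact binomial intervals. Chromosome 11 has the highest share in both lists (15.1% and 34.3%) and the X chromosome the lowest (2.63% and 8.00%).

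Few shared regions had another shared region nearby. The nearest other shared summit lay a median of 1150 kb away (interval 988 to 1487 kb). Another shared summit lay within 10 kb for 14 of 355 (3.94%), within 50 kb for 27 (7.61%) and within 100 kb for 37 (10.4%). Over all 4216 listed injected-thymocyte regions, 7.35%, 21.4% and 35.0% had another listed region within these distances. Their median distance was 172 kb. Fewer regions lie farther apart by their number alone, so these distances are a description. A group of 7 on chromosome 1, described below with the raised control signal, supplied 6 of the 14; without it 8 of 348 had a shared neighbour within 10 kb. Besides that group there were 10 groups of 2 within 50 kb and none larger. The closest pair with little control signal was chr9:123665626-123665922 and chr9:123667806-123668045, with summits 2.18 kb apart and 34 and 25 ChIP tags in injected thymocytes. Next came chr7:29167160-29167422 and chr7:29171388-29171756, 4.39 kb apart with 20 and 39 tags and no control tag at either in injected thymocytes. The third closest with little control signal was chr10:127099197-127099481 with chr10:127103673-127104216, 4.70 kb apart with 54 and 114 tags, and the NKT partner of the latter, at 518 bp, was the second widest shared NKT region with a control density under 3.

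Shared injected-thymocyte regions had an unshared region of the same list nearby more often than unshared regions had another unshared one. Of the shared injected-thymocyte summits, 160 of 355 (45.1%, 39.8% to 50.4%) had such a region within 100 kb, and the median distance was 115 kb (99.1 to 146 kb). Of the 3861 unshared regions, 1191 (30.8%, 29.4% to 32.3%) had another unshared region within 100 kb, at a median distance of 203 kb. In the NKT list the corresponding shares were 16.7% (12.9% to 20.97%) and 15.3% (13.6% to 17.1%), with medians of 506 and 481 kb. Summits of 1 neighbourhood are not independent, and no test was made.

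Raised control signal marked a small part of the set, and much of it lay in 1 place. A control density of 5 or more in either list was found in 8 pairs, of which 4 lay in a group of 7 shared injected-thymocyte regions on chromosome 1 whose outer summits were 91.4 kb apart. The 300 kb around this group held 56 listed injected-thymocyte and 13 listed NKT regions. The shared regions of the group were up to 1668 bp wide for injected thymocytes, and up to 1761 bp for NKT cells. They held 9 to 66 control tags of injected thymocytes, and 57 to 171 of the NKT library, and the deposited tag enrichment was at most 2.76 and 1.66. Every region that overlapped more than 1 region of the other list was there: chr1:90112002-90113762 and chr1:90203135-90204267 of NKT cells and chr1:90203936-90204955 of injected thymocytes. The other pairs were chr1:26744051-26744535, with 55 ChIP and 28 control tags for injected thymocytes against 114 and 106 for NKT cells, chr13:120278366-120279033 with 73 and 34, and 76 and 78, chrX:166416170-166416669 with 43 and 36, and 61 and 66, and chr6:124836013-124836429. At the last, injected thymocytes had 39 ChIP and 14 control tags and NKT cells 659 and 975. In all 4 the NKT library held nearly as many control tags as ChIP tags, or more. What part the control signal has in their overlap was not tested.

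Very small overlaps and near misses were few, but the size of the set depended on the rule. The 355 shared injected-thymocyte regions became 295 when at least 50% of both regions had to overlap. They became 326 with summits at most 100 bp apart and 379 with regions extended by 500 bp on each side. A strand shift of 60 bp or more in both lists left 245. The smallest overlaps were 13 bp, between chr9:37420758-37420950 and an NKT region with 14 ChIP tags, 61 bp at chr11:108134100-108134389, with 27 and 19 tags, and 75 bp at a position on chromosome 18. Just outside the rule, the closest regions without overlap were 1 bp apart, chr1:90160096-90160722 of injected thymocytes and an NKT region that was shared through another partner. The next were 3 bp apart, at chr14:43998215-43998375, with 24 and 16 ChIP tags, and 49 bp apart, again in the crowded stretch of chromosome 1. In all, 2 pairs of regions of which neither was shared were at most 100 bp apart, and 15 at most 1000 bp.

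The widest shared injected-thymocyte region with a control density under 3 was chr1:194999300-195000123, at 824 bp and 110 ChIP tags, whose NKT partner had 28 tags and a density of 10.05. The coordinates are those of the mm9 lists. Genes, promoter distances and the DNA sequence at the shared regions are not given, since the gene tables used here are of GRCm38, another build, and coordinates were not converted.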

How the data were processed

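Each list was made from 1 Egr2 ChIP-seq library. The aligner was Bowtie and the build mm9, both named per the submitters' processing notes. The region caller, its settings and the control library are not given in the sources used here. Both deposited signal values, ChIP and control, are tag densities at the summit, in a scaling that is not stated. The deposited fold is the ratio of ChIP to control density, with the control taken as at least 1. Whole numbers of ChIP and control tags per region and a tag enrichment are also deposited, and strand shift was taken from the peak line of each region.

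From these, regions were matched with Python 3.11.15 (pandas 2.3.3, numpy 2.4.6) and intervals computed with scipy 1.17.1. Shares carry exact (Clopper-Pearson) intervals, medians the exact order-statistic interval and tag ratios an exact interval for 2 counts, all at 95%. The first 2 kinds treat regions as independent draws, and the third covers counting error only. Tags that are PCR copies are not independent molecules. Depth per library was not given, so precision rests on each region's tags. Matching and intervals were tested on simulated data. Quartiles of a list use its own density percentiles, with ties in the upper one. No test between conditions was made. Members, limits and naming rules were chosen with earlier results of these data known. Regions were named by joint rank, tag balance, spacing, multiple overlap, size of overlap, control density of 5 or more, and width. The planned assignment to genes and gene lists was left out for want of an mm9 annotation, and the input and IgG libraries were not analysed here.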

Additional observations from a re-analysis of the deposited data

How the results depend on the processing

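The counts, medians, spacing and tag balance of the set had 63 alternatives. Of these, 57 fell within the interval of the value given, or within 1.5 times a count, and 6 fell outside. All 30 for the 10 pairs named by tag balance stayed inside their intervals. These pairs were named with control densities under 3 in both lists, so the alternative with this limit only rescaled all 10 balances alike. Densities and control-subtracted tags come from the same libraries and are no independent check. With only the upper 50% of each list by density, the median NKT density went from 14.2 to 15.3 and the median NKT tags from 26 to 28, since lower regions are then left out. With an overlap of at least 50% of both regions, the median distance to the nearest shared region went from 1150 to 1545 kb; the cause was not tested. Shared regions with a shared neighbour numbered 27 within 50 kb and 37 within 100 kb in place of 14 within 10 kb, as wider limits must give, and 8 within 10 kb without the group of 7 on chromosome 1, an alternative chosen after seeing the data, like the restriction to regions with 1 partner. Distance to transcription starts was planned and not run, for want of an mm9 annotation. No paired analysis was possible because each condition has 1 library. A median shared region rests on 44 or 26 ChIP tags, which limits each tag balance.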

Other observations

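The shared regions took a larger part of the tags than of the covered sequence in injected thymocytes: 14.8% of the listed base pairs and 19.3% of the 96586 ChIP tags, but 885 of 13020 control tags. In NKT cells they took 29.0% of the base pairs, 30.4% of the 37492 ChIP tags and 2881 of 10957 control tags. The NKT partner of chr6:124836013-124836429, a region of raised control signal, alone held 659 of these ChIP tags and 975 of these control tags.

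Some of the groups of 2 joined a tall and a lower region. At chr14:78936461-78936908 and chr14:78958880-78959180, 22.3 kb apart, injected thymocytes had 116 and 37 ChIP tags, while NKT cells had 17 and 29. At chr16:95971967-95972203 and chr16:95991320-95991653, 19.4 kb apart, both libraries had more tags in the second region, 25 and 79 for injected thymocytes, 21 and 32 for NKT cells. The order of the 2 regions by tags was thus the same in both libraries on chromosome 16 and not on chromosome 14. These 2 groups were chosen after their values were seen.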
